A study of Mus musculus with 6 samples.

Results

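The enzymes of serine synthesis and of folate-bound one-carbon metabolism were examined in brown adipose tissue of Cd36 null mice. Of 10 enzymes, 2 stood out as higher in the null tissue: Mthfd2, a mitochondrial folate enzyme, by 3.49 log2 units (11.2-fold), and Psat1, an enzyme of serine synthesis, by 1.81 log2 units (3.51-fold). The 10 genes are Phgdh, Psat1, Psph, Shmt1, Shmt2, Mthfd1, Mthfd1l, Mthfd2, Aldh1l1 and Aldh1l2, among 19056 genes that the array annotation names. They were taken as every probe annotated with 1 of these symbols, 17 probes of 45267, covering 9 of the 10 genes. No probe used here is annotated to Mthfd1l. The pathway was chosen by the difference between the genotypes in these same arrays, so the values of its members for that difference are a description and carry no test.

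The study compared wild type mice with mice lacking Cd36, a membrane protein for uptake of long-chain fatty acids. All were male C57BL6J mice of 3 months whose food was removed overnight, so the fast and the strain background are shared by both groups. Each genotype was represented by 3 samples of total RNA, 1 array each. The labels name no promoter or tissue that limits the deletion. They do not state whether the samples came from separate animals, so errors and p-values reflect only how far these samples differ among themselves, and some of that may be technical.

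Serine is made from the glycolytic intermediate 3-phosphoglycerate by Phgdh, Psat1 and Psph in turn. Serine hydroxymethyltransferases, Shmt1 in the cytosol and Shmt2 in mitochondria, then split serine into glycine and a one-carbon unit carried by tetrahydrofolate. In mitochondria Mthfd2 oxidises that unit, Mthfd1l releases it as formate and Aldh1l2 oxidises it to carbon dioxide, while Mthfd1 and Aldh1l1 handle the unit in the cytosol. The transcription factor ATF4, which responds to amino acid shortage and to mitochondrial stress, is known to raise several of these enzymes, and Mthfd2 is usually low in resting adult tissue.

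The promoters of Mthfd2 and Psat1 are shown because these were the 2 members higher in null tissue by the call rule given below. They are the 250 bases before an annotated transcript start (RefSeq, GRCm38.p6), read 5′ to 3′ on the gene's strand. Capitals mark every CCAAT box on either strand. The first lies at chr6:83317605-83317854 on the minus strand and the second at chr19:15925060-15925309 on the minus strand.

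Mthfd2 promoter: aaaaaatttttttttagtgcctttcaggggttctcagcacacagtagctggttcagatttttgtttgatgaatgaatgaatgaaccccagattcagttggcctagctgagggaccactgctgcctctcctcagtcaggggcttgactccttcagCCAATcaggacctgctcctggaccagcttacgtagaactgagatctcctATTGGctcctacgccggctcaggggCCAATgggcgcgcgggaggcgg

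Psat1 promoter: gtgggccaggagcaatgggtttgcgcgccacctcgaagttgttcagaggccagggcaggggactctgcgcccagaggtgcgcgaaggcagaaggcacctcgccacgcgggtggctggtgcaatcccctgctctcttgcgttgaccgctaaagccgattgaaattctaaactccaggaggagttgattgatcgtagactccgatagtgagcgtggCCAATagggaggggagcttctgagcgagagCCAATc

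The Mthfd2 window holds 3 CCAAT boxes, 2 on the gene's strand and 1 on the other, whose first bases lie 96, 47 and 22 bases before the start. The Psat1 window holds 2, at 36 and 6 bases before the start. A second annotated start of Psat1 is not shown, and its window holds 0 CCAAT boxes. In the same window CCAAT occurs in 33.8% of 32851 promoters, and in 7 of the 10 promoters listed for 9 member genes. The core of the element that ATF4 binds with C/EBP factors, searched as TGATGNAA on both strands, is in 3.45% of promoters and in 0 of those 10. Of the 7 ATF4 pathway genes that passed the test given below, 2 hold it, Asns and Atf3. The E-box CACGTG, searched likewise, is in 6.02% of promoters and in 0 of the members' 10. An absent match says only that these letters are not in this window.

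The arrays and their tissue label were checked before the members were described. Between 16929 and 19199 probes per array were detected, that is, had a detection p under 0.05 against the array's own background. All 10 brown adipocyte markers were detected on every array, Ucp1, Cidea and Adipoq among them. By the brightest tested probe of each gene, 1 of these 10 passed as higher, the fatty acid elongase Elovl3 (2.53 ± 0.20 log2, SE). By the same count 1 passed as lower, the brown fat regulator Prdm16 (-0.71 ± 0.15). The Prdm16 call was lost with median scaling, with the replicate number as a block, and in every omission of 1 array save that of null replicate 1. Pparg did not pass by its brightest probe (-0.64 ± 0.19), but its 2 other tested probes, at -1.58 and -0.74, passed as lower. The mean of the 10 stood 0.02, 0.09 and 0.14 log2 above the wild type mean on null replicates 1 to 3, and that of the 9 without Elovl3 stood at -0.22, -0.19 and -0.15. The deleted gene could not check the labels, because the 1 probe named Cd36 was at background on all but 1 array, which was wild type. Transcripts of other cell types moved with genotype. Of 18 hepatocyte markers, 13 were tested and 8 passed as higher, against 5.73% of all genes. Of the 13, 5 were detected on every array. Fga, Ahsg, Hpx and Ambp, among the 8, entered the test only through the null arrays, where they are high. The second tested probes of Apoa2, Fga, Ahsg and Hpx did not pass, while the 2 others of Serpina1b did. The mean of the 13 stood 4.87, 1.71 and 2.19 log2 above its wild type mean on null replicates 1 to 3 (range in wild type -0.39 to 0.61). The 8 hepatocyte calls fell to 0 without wild type replicate 1 or 2, with no filter and with a trended, robust fit. The hepatocyte genes Alb, Fgb, Tat and Tdo2 were detected on no array. Of 16 macrophage markers, 13 were tested and 10 passed as higher, with their mean 1.61, 1.78 and 1.61 log2 above on null replicates 1 to 3 (range in wild type -0.15 to 0.24), and Itgam was detected on no array. In tissue RNA, more cells of a type cannot be told apart from more RNA per cell.

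Of the 17 member probes, 10 were detected on at least 3 arrays and tested, and they covered 7 genes. Values are log2 intensities after background correction and quantile normalisation, with an offset of 16 that shrinks the differences of dim probes. A probe is said to have passed where limma's moderated test gave an adjusted p under 0.05 over all 17912 tested probes. By that rule 2 of the 7 genes passed as higher, against 6.26% of all genes, and 0 as lower. By probe, 3 of 10 passed, against 5.01% of all probes as higher. The null values lay all above the wild type values for 5 of 10, against 13.6% of all probes. The second Mthfd2 probe, counted in both, entered the test only through the null arrays, where it is high. In the authors' log2 table Shmt1 passed too, making 3 of the 7 genes, against 6.72% of all genes. Since the pathway was picked on this contrast, nothing is read from these shares. By the brightest tested probe of each gene, the 7 differences had a median of 0.29 log2, beside -0.03 over all genes.

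**Figure D1:**
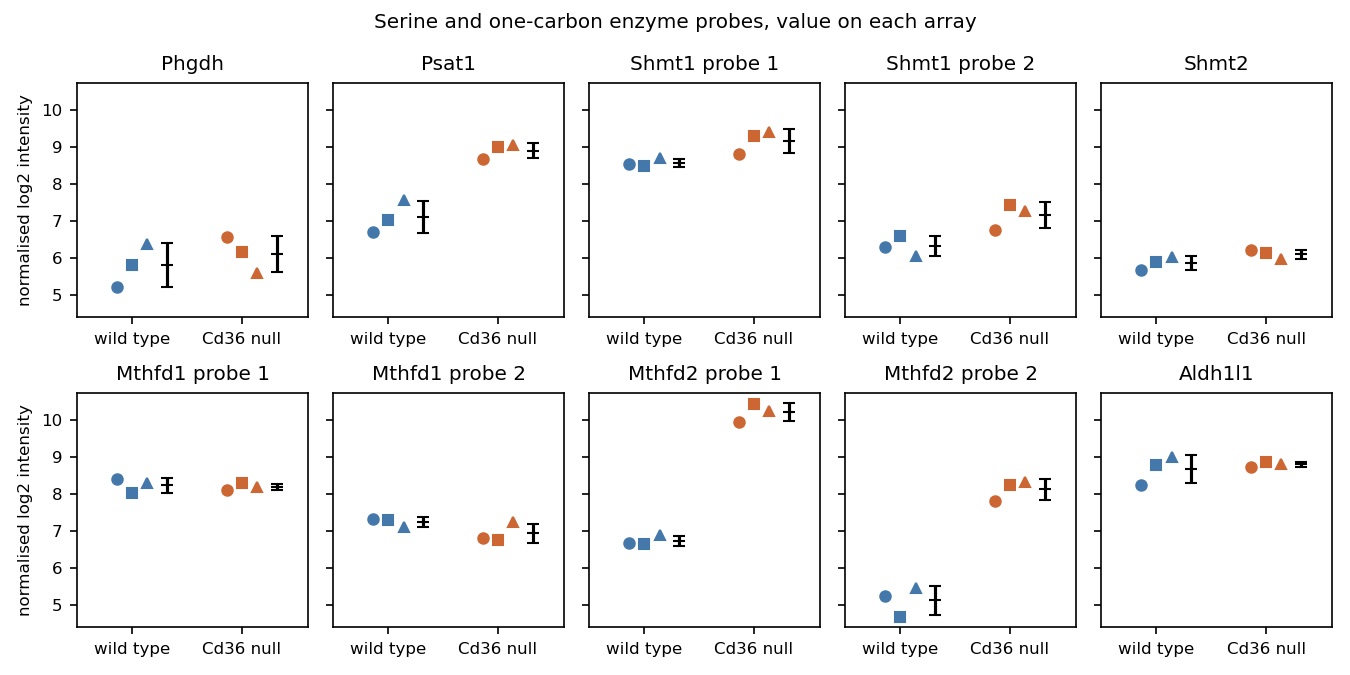
Normalised log2 intensity of each tested member probe on each array, wild type in blue and Cd36 null in orange. Circles, squares and triangles are replicates 1, 2 and 3 of a genotype, which are not treated as pairs. Black bars are the mean and SD of 3 arrays. The Mthfd2 and Psat1 probes and both Shmt1 probes lie higher on every null array than on any wild type array, while the other 5 probes overlap.

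Mthfd2, the NAD-dependent dehydrogenase and cyclohydrolase of mitochondria, had the largest difference among the members. On its brighter probe wild type replicates 1 to 3 had raw intensities of 165, 188 and 198, whereas null replicates 1 to 3 reached 1147, 1538 and 1368. Every null array was several times brighter than any wild type array, and the groups lay far apart. Normalised log2 values averaged 6.73 ± 0.14 for wild type against 10.22 ± 0.24 for null arrays (SD, n = 3), a difference of 3.49 ± 0.18 (SE). Among the rises of all tested probes this one ranked 28.

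A second Mthfd2 probe gave 5.22, 4.67 and 5.45 log2 in wild type and 7.81, 8.25 and 8.32 in null replicates 1 to 3, a difference of 3.01 ± 0.24 (SE). With 1 of 3 wild type arrays below detection, the wild type side is close to background, which makes the size uncertain. In the authors' log2 table, which carries a larger offset, the differences of the brighter and dimmer probe were 3.14 and 2.18. Mthfd2l, the related mitochondrial enzyme, had 1 probe, and it was detected on no array (raw intensity 91.5 to 120).

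Psat1, the aminotransferase at the middle step of serine synthesis, was the other member that passed. Its only probe read 6.71, 7.02 and 7.56 log2 in wild type and 8.68, 8.99 and 9.05 in null replicates 1 to 3. The groups did not overlap, and wild type replicate 3 lay closest to the null arrays. The means were 7.10 ± 0.43 and 8.91 ± 0.20 log2 (SD, n = 3), a difference of 1.81 ± 0.23 (SE), and 1.59 in the authors' log2 table. Within wild type, replicate 3 was also highest for the means of the hepatocyte, macrophage, lymphocyte, ATF4 pathway and brown adipocyte lists, at 0.61, 0.24, 0.14, 0.12 and 0.04 log2 above their wild type means. On null replicates 1 to 3 the ATF4 pathway list stood 0.59, 0.68 and 0.77 above and the macrophage list 1.61, 1.78 and 1.61, beside 1.58, 1.90 and 1.96 for Psat1. The part of these lists in the Psat1 difference was not tested.

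The other enzymes of serine synthesis did not pass. Phgdh, which commits 3-phosphoglycerate to serine, read 5.21, 5.82 and 6.38 log2 in wild type and 6.55, 6.16 and 5.59 in null replicates 1 to 3. The groups overlapped almost fully, and the difference of 0.29 ± 0.33 (SE) did not pass. Psph, the phosphatase that releases serine, was detected on 0 of 6 arrays, with raw intensities of 86.3 to 102, so no level can be given. With an SE of 0.33 for Phgdh, a moderate change in either direction could go undetected with 3 arrays per genotype.

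**Figure D2:**
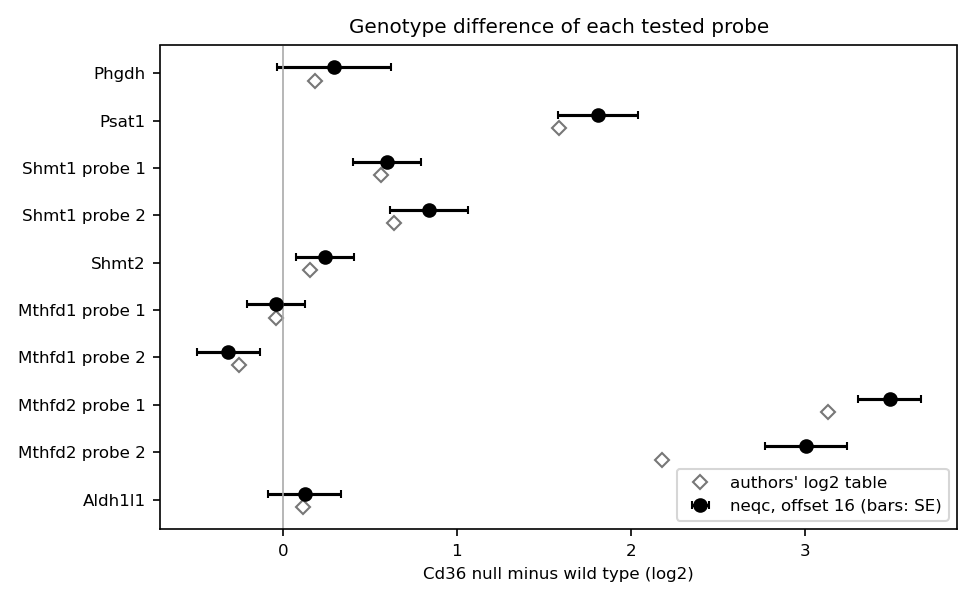
Difference between Cd36 null and wild type in log2 for the 10 tested member probes. Black points are the values used here with bars of 1 SE, and open diamonds are the differences in the authors' log2 table, which lie closer to 0 for dim probes such as the second Mthfd2 probe (3.01 against 2.18).

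Of the enzymes that split serine, the cytosolic Shmt1 was higher on both of its probes without passing. The brighter probe read 8.54, 8.49 and 8.70 log2 in wild type and 8.80, 9.32 and 9.42 in null replicates 1 to 3, a difference of 0.60 ± 0.20 (SE). The dimmer probe read 6.30, 6.59 and 6.05 in wild type and 6.76, 7.44 and 7.26 in null tissue, a difference of 0.84 ± 0.22 (SE). On each probe the groups did not overlap and null replicate 1 lay nearest to wild type. Null replicate 1 is the array on which the hepatocyte markers were highest, and their part in the Shmt1 values was not tested. With that array left out both probes passed, the brighter at a difference of 0.79, and in the authors' log2 table the dimmer probe passed while the brighter did not.

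Shmt2, its mitochondrial counterpart, read 5.66, 5.88 and 6.03 log2 in wild type and 6.20, 6.13 and 5.97 in null replicates 1 to 3. The groups overlapped, and the difference was 0.24 ± 0.17 (SE) without passing. A second Shmt2 probe, seen above background on 2 null arrays alone, was not tested. Its raw intensities were 105, 111 and 101 in wild type and 120, 119 and 128 in null tissue, close to background.

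Mthfd1, which carries the cytosolic counterparts of the Mthfd2 and Mthfd1l reactions on 1 protein, did not pass on either tested probe. Its brightest probe read 8.41, 8.02 and 8.29 log2 in wild type and 8.12, 8.29 and 8.19 in null replicates 1 to 3, a difference of -0.04 ± 0.17 (SE). A second probe gave 7.33, 7.31 and 7.10 against 6.81, 6.75 and 7.24, a difference of -0.31 ± 0.18 (SE) with overlapping groups. Its remaining probe was detected on no array.

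The folate dehydrogenases that burn the one-carbon unit to carbon dioxide did not pass. Aldh1l1, the cytosolic form, had raw intensities of 343, 529 and 576 in wild type and 550, 569 and 575 in null replicates 1 to 3. The null values lay inside the wild type range, and the normalised difference was 0.13 ± 0.21 log2 (SE). Its second probe was above background on 2 null arrays and no wild type array, with raw intensities of 105 to 129. Aldh1l2, the mitochondrial form, had 3 probes, of which none was detected in wild type and the best was detected on 2 null arrays. They were not tested, and no difference is given. Over the 7 untested member probes the raw intensity ran from 86.3 to 129.

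**Figure D3:**
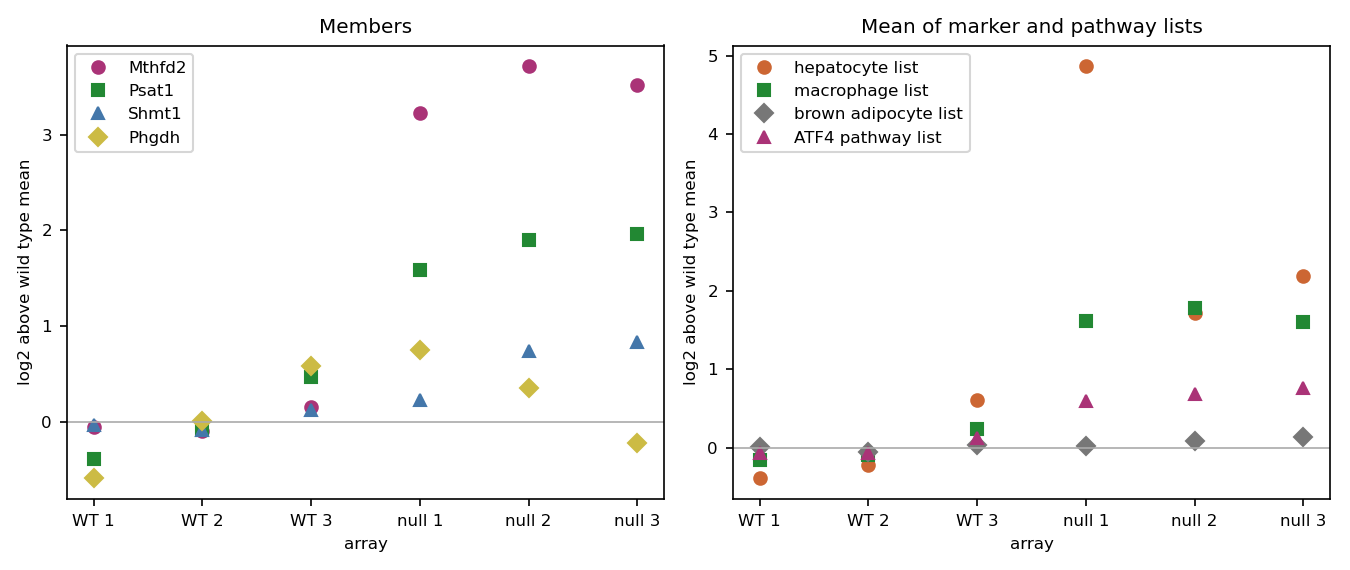
Left, values of 4 members by their brightest probe on each array, in log2 above the wild type mean. Right, the mean of 2 marker lists of other cell types, of the brown adipocyte markers and of the ATF4 pathway genes on the same scale. Mthfd2 stands 3.23 to 3.72 above on the null arrays and is lowest on null replicate 1, where the hepatocyte list is highest at 4.87. The part of these lists in the member values was not tested.

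Among the null arrays the order differed between members. Mthfd2 stood 3.23, 3.72 and 3.52 log2 above its wild type mean on null replicates 1 to 3, and Psat1 stood 1.58, 1.90 and 1.96 above. Both were lowest on null replicate 1. Phgdh ran in the opposite order to Psat1, at 0.75, 0.35 and -0.22. Mthfd2 and Psat1 passed in every one of the 15 alternatives tried, including the omission of each array, and their differences ranged from 2.63 to 3.64 and from 1.27 to 2.05.

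The genes whose array profiles were most like the 2 enzymes were found by the Euclidean distance over the 6 arrays, after subtracting each probe's wild type mean. Nearest to Mthfd2 were Lgals3, Cyp2b23, Cbr3, Abhd1 and Bmp8b, at distances of 0.591 to 1.02 log2, with differences between genotypes of 2.95 to 3.28. Nearest to Psat1 were Plac8, Fcgr4, Fcer1g, Abcc4 and Ccl9, at distances of 0.295 to 0.336, with differences of 1.66 to 1.89. Of the genes nearest to Mthfd2, only Lgals3 is among the macrophage markers used here. Near Psat1, Fcgr4 and Fcer1g encode immunoglobulin receptor chains of myeloid cells. The macrophage list stood 1.61, 1.78 and 1.61 log2 above wild type on null replicates 1 to 3, beside 3.23, 3.72 and 3.52 for Mthfd2. The part of this list in the Mthfd2 difference was not tested. The distance rests on the same contrast that picked the pathway and is a description of 6 arrays.

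Genes next to these enzymes in metabolism were read from the same fit, by the brightest tested probe of each gene. Of 96 genes in 8 lists, 85 had a probe and 67 were tested, and 11 passed as higher and 2 as lower, against 5.73% and 2.11% of all genes. The ATF4 pathway supplied 7 of the 11 rises. In the other 7 lists 4 of 49 tested genes passed as higher and 2 as lower. Gldc, 1 of these 4, entered the test only through the null arrays, where it is high.

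**Figure D4:**
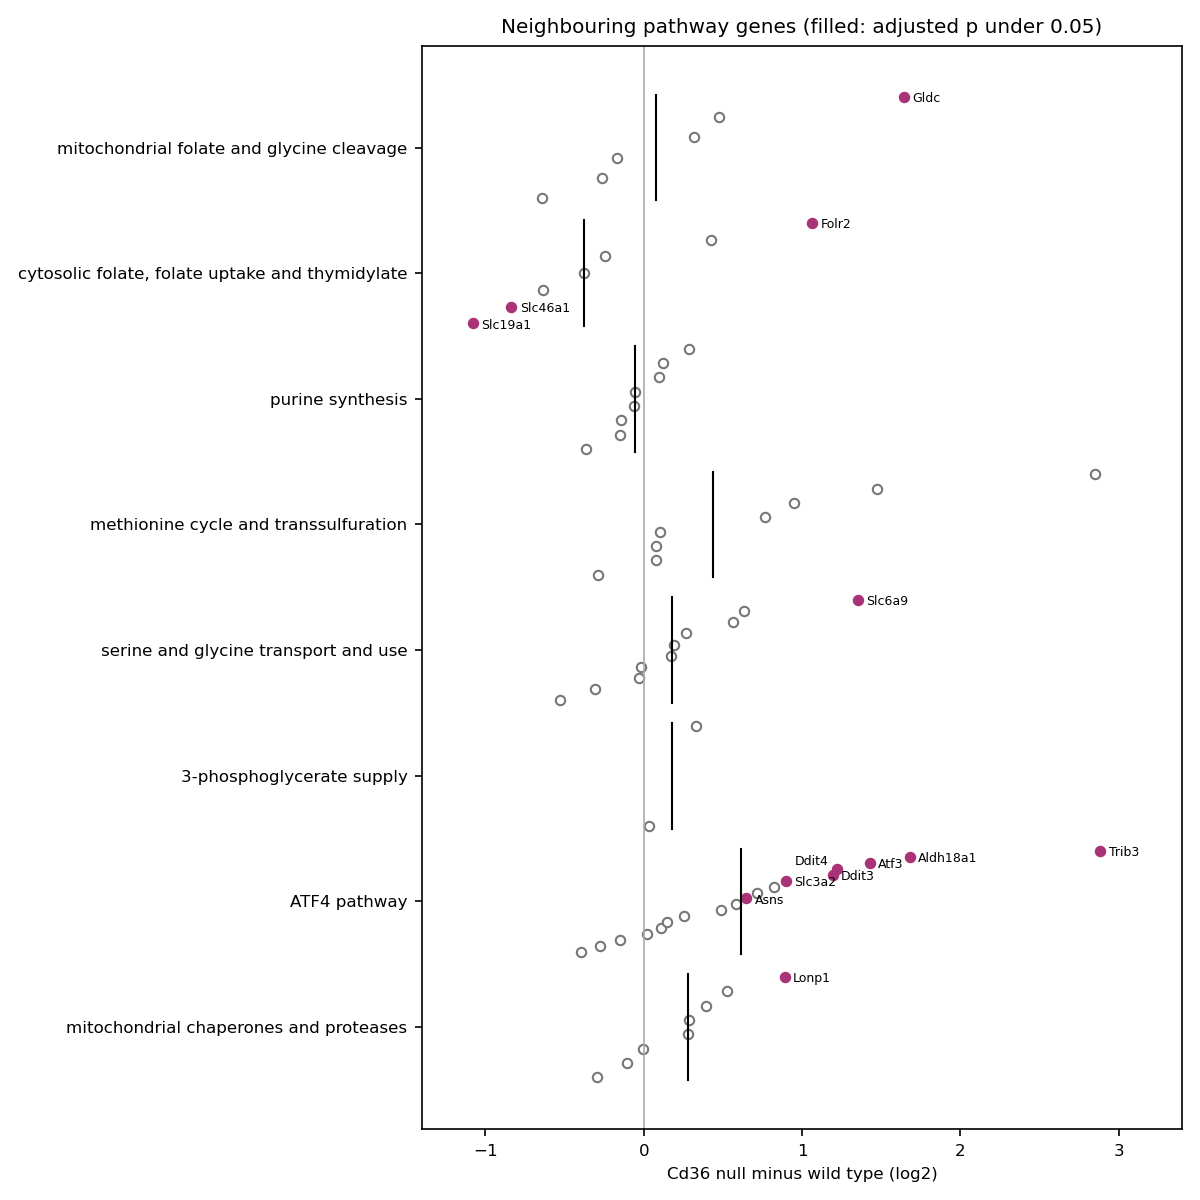
Difference between Cd36 null and wild type in log2 for each tested gene of 8 neighbouring lists. Filled points are genes with an adjusted p under 0.05 in limma, labelled by name, open points did not pass, and the black line is the list's median, with heights within a list serving only to separate points. The folate carriers Slc19a1 and Slc46a1 lie to the left at -1.08 and -0.84, and Trib3 of the ATF4 pathway lies farthest right at 2.88.

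Among the cytosolic folate, folate uptake and thymidylate genes, 1 of 7 tested genes passed as higher and 2 as lower. Slc19a1, the reduced folate carrier, read 9.86, 9.96 and 9.81 log2 in wild type and 8.74, 8.73 and 8.92 in null replicates 1 to 3. It fell by 1.08 log2 (SE 0.15, adjusted p = 0.00395 in limma), lower on 3 of 3 null arrays, and passed in every alternative (adjusted p 2.63e-04 to 0.0264). Slc46a1, the proton-coupled folate transporter, read 7.21, 7.56 and 7.62 in wild type and 6.45, 6.80 and 6.64 in null tissue, and fell by 0.84 log2 (SE 0.18, adjusted p = 0.0249). Its call ended with median scaling and when wild type replicate 2 or 3 or any null array was left out (adjusted p over the alternatives 0.00984 to 0.106).

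Folr2, a folate receptor known from macrophages, went the other way. It read 6.59, 7.17 and 7.14 log2 in wild type and 8.15, 8.07 and 7.87 in null replicates 1 to 3, and rose by 1.06 ± 0.20 (SE, adjusted p = 0.0139 in limma), with a second probe at 1.40 that passed too. The call of the brighter probe ended without null replicate 2 (adjusted p = 0.0533), and over the alternatives the adjusted p ran from 0.00366 to 0.0533. The macrophage list stood 1.61 to 1.78 log2 above wild type on the null arrays, and its part in the Folr2 difference was not tested. The other 4 tested genes of the list, Mthfs, Mthfsd, Tyms and Fpgs, did not pass, and the list's median was -0.37.

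In the mitochondrial list 1 of 6 tested genes passed as higher and 0 as lower, with a median of 0.08 log2. Gldc, the decarboxylase of the glycine cleavage system, read 4.62, 5.16 and 5.30 in wild type and 7.72, 6.27 and 6.02 in null replicates 1 to 3. It rose by 1.64 ± 0.41 (SE, adjusted p = 0.0439 in limma). With 1 wild type array below detection, it entered the test only through the null arrays, where it is high. It was highest on null replicate 1, as were the hepatocyte markers. Their part in it was not tested. Its call ended in the authors' log2 table (adjusted p = 0.0588), with an offset of 50, without background correction, with no filter, and without null replicate 2 or any wild type array (adjusted p over the alternatives 0.0223 to 0.173). Slc25a32, which carries folate into mitochondria, read 7.21, 6.87 and 7.14 in wild type and 6.36, 6.35 and 6.59 in null tissue. The groups did not overlap, and its difference of -0.64 ± 0.17 lay just outside the threshold (adjusted p = 0.0535), passing in the authors' log2 table (adjusted p = 0.0456). Over the alternatives its adjusted p ran from 0.0427 to 0.171.

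Glycine transport had 1 gene that passed. Slc6a9, the glycine transporter of the plasma membrane, read 6.26, 6.14 and 6.21 log2 in wild type and 7.90, 7.29 and 7.47 in null replicates 1 to 3. It rose by 1.35 ± 0.19 (SE, adjusted p = 0.00381 in limma), on 3 of 3 null arrays, and passed in every alternative (adjusted p 7.82e-04 to 0.0230). The other 9 tested genes of serine and glycine transport and use did not pass, and the list's median was 0.18.

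Purine synthesis, which takes one-carbon units from formyl folate, had 8 tested genes of which 0 passed, with a median of -0.06. Its smallest p belonged to Adsl, at -0.37 ± 0.16 (SE, adjusted p = 0.218 in limma), and next to Ppat, at 0.28 ± 0.24 (adjusted p = 0.547). The 2 tested glycolytic genes that make or use 3-phosphoglycerate, Pgk1 and Pgam1, differed by 0.03 and 0.33 without passing (adjusted p = 0.943 and 0.272).

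The methionine cycle and transsulfuration list had a median of 0.43 log2, and 0 of 8 tested genes passed. Mat1a, the methionine adenosyltransferase of liver, read 4.81, 4.83 and 5.57 in wild type and 9.97, 6.27 and 7.53 in null replicates 1 to 3, a difference of 2.85 ± 0.76 (SE, adjusted p = 0.0566 in limma). Its order over the null arrays, highest on replicate 1 and lowest on replicate 2, was that of the hepatocyte markers, whose part was not tested. Mat1a passed without null replicate 1 (difference 1.83) and without null replicate 2 (3.68), and with array weights or median scaling, so that single arrays decide its value. Cth, which makes cysteine from cystathionine, was detected on every null array and no wild type array. It was at least 1.27-fold higher without passing (adjusted p = 0.0566), and over the alternatives the adjusted p ran from 0.0177 to 0.184.

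The ATF4 pathway was the list with the most changes, 7 rises and 0 falls among 18 tested genes, with a median of 0.61 log2. Of the 7, 3 entered the test only through the null arrays, where they are high, namely Aldh18a1, Atf3 and Slc3a2, while the other 4 were detected on every wild type array. Trib3, a pseudokinase induced by ATF4 and CHOP, rose by 2.88 ± 0.17 (SE, adjusted p = 7.66e-05 in limma), from 8.83, 8.82 and 8.58 in wild type to 11.49, 11.85 and 11.55 in null replicates 1 to 3. Aldh18a1, the first enzyme of proline synthesis from glutamate, rose by 1.68 ± 0.29 (adjusted p = 0.00966), with detection on 1 of 3 wild type arrays, so its size is uncertain. Ddit4, an inhibitor of mTORC1, rose by 1.22 ± 0.21 (adjusted p = 0.00975) and Ddit3, which encodes CHOP, by 1.19 ± 0.22 (adjusted p = 0.0124). Atf3, a related factor, and Slc3a2, the heavy chain of amino acid exchangers, were not detected in wild type and were at least 1.98-fold and at least 1.37-fold higher (adjusted p = 0.0182 and 0.0377).

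Atf4 itself read 11.11, 10.96 and 11.13 log2 in wild type and 11.25, 10.99 and 11.40 in null replicates 1 to 3, a difference of 0.15 ± 0.17 (SE, adjusted p = 0.680 in limma) with overlapping groups. Asns, the asparagine synthetase, was added after its value was seen as the remaining gene of the 7, and rose by 0.65 ± 0.16 (adjusted p = 0.0473). Its 2 other tested probes, at 0.57 and 0.66, did not pass. The call of Asns ended when any 1 of the 6 arrays was left out and with no filter (adjusted p over the alternatives 0.00744 to 0.180). The call of Slc3a2 ended when wild type replicate 1 or 2, or null replicate 2 or 3, was left out, in the authors' log2 table, with an offset of 50, without background correction and with no filter. That of Atf3 ended without any wild type array, without background correction and with no filter, and that of Ddit3 without wild type replicate 1 or 2. The calls of Trib3 and Ddit4 held in all 15 alternatives. That of Aldh18a1 held in all but 1 of those it entered, the fit with no filter (adjusted p = 0.0547, range over the alternatives 0.00124 to 0.0547). Aldh18a1, Atf3 and Slc3a2 did not enter the fit of probes detected on all 6 arrays.

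Of 8 mitochondrial chaperones and proteases, 1 passed as higher and 0 as lower, with a median of 0.28 log2. Lonp1, the matrix protease, read 10.61, 10.66 and 10.36 in wild type and 11.12, 11.59 and 11.57 in null replicates 1 to 3, and rose by 0.89 ± 0.19 (SE, adjusted p = 0.0225 in limma). Its call ended without any wild type array, without null replicate 2 or 3 and with no filter, and over the alternatives the adjusted p ran from 0.00229 to 0.0873. Among dividing-cell markers, given because resting tissue has little Mthfd2, 2 of 9 tested genes passed as higher, against 5.73% of all genes. Of the 9, 4 were detected on every array. The mean of the 9 stood 0.36, 0.34 and 0.66 log2 above wild type on null replicates 1 to 3. The 2 calls, Top2a and Mcm7, both ended without wild type replicate 1 or 2, null replicate 1 or null replicate 3. They also ended with no filter, without background correction and with the replicate number as a block. With an offset of 50, and in the authors' log2 table, 1 of the 9 passed. Mthfd2 itself was 3.23 to 3.72 above on the null arrays, and the part of dividing cells in it was not tested.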

How the data were processed

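The deposited scanner table holds, per the file headers, a linear intensity for each probe and array and a detection p-value beside it, neither normalised between arrays. The authors' deposited value table is on a log2 scale, and the submitters' processing notes name limma without a version or steps. Compared with neqc at an offset of 50, the largest deviation in it was 0.0240 log2. Here the intensities went through neqc, in limma 3.58.1 and R 4.3.3 (background from the detection p-values, offset 16, quantile normalisation). The 17912 probes detected (p below 0.05) on 3 or more arrays entered the test, with lmFit and eBayes and Benjamini-Hochberg adjustment over all of them. Every adjusted p is from that test. Differences are null minus wild type. Depth has no equivalent here, and the number of arrays limits precision.

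Of 45267 probes, 34875 had 1 gene symbol, 18 had several and 10374 were not listed in the annotation used, so a further probe of a member may be unnamed. Where no array of a genotype detected a probe, the difference is a bound: the bright group's mean against, per array, the higher of the lowest detected signal and the probe's own. The members and lists were chosen with earlier results of these data known, and the ATF4 result was among them, so it is no independent support. Named genes are every member; in each neighbouring list the genes that passed, up to 6 by smallest p, or else the 2 of smallest p; Atf4, Mthfd2l and Slc25a32; and the 5 genes nearest to Mthfd2 and to Psat1. Of the marker lists, 4 of 6 tested lymphocyte genes passed as higher, against 5.73% of all genes, and 0 of 11 skeletal muscle genes passed. Of the 6 lymphocyte genes, 2 were detected on every array. Their 4 calls fell to 2 in the authors' log2 table, without background correction and with no filter, and numbered 2 to 4 without 1 array. The lymphocyte genes Ptprc, Ms4a1 and Cd4 were detected on no array. The main fit did not treat samples with the same replicate number as pairs. Deviations of arrays with the same number had correlations of 0.08, -0.02 and 0.03 between genotypes, which cannot exclude a pairing. The fit was tested on simulated data.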

Additional observations from a re-analysis of the deposited data

Results flagged for a closer look

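A second Shmt2 probe that was too dim to enter the main test was above background on 2 null arrays and on no wild type array. Its null mean did not exceed the lowest detected signal of the wild type arrays, so no fold is given.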

How the results depend on the processing

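Here 27 named genes were recomputed under 15 alternatives. Gldc, Mat1a, Cth, Aldh18a1, Atf3 and Slc3a2 did not enter 1 of these, the fit of probes detected on all 6 arrays. Of 399 values, 338 kept their direction and side of the threshold, 40 no longer passed and 14 newly passed. The other 7 changed sign with no call in either setting, in Mthfd1 (-0.15 to 0.10), Phgdh, Aldh1l1 and Pgk1, and 0 called values changed sign. The members that passed numbered 2 or 3 throughout (2 to 3 without 1 array), Shmt1 being the third. The count of changed probes was 1296, 2388 with array weights and 589 to 1043 without 1 array, lowest without wild type replicate 2 and also 704 without wild type replicate 1 and 724 without null replicate 2. The count of neighbouring genes that passed was 13, 8 with no filter, 22 with array weights, and 6 to 12 without 1 array, at 6, 7 and 8 without wild type replicate 2, wild type replicate 1 and null replicate 2. The causes were not tested. With the replicate number as a block the counts were 868 probes, 2 members and 9 neighbouring genes. Among the neighbouring genes, the calls of Gldc, Slc3a2, Lonp1 and Asns ended. The samples are known to share only a number. Median scaling moved the median of all tested probes by 0.13 log2, from -0.05 to 0.08, and the share of rises among changed probes from 69.2% to 85.6%. Dim probes limit the sizes: the dimmer Mthfd2 probe gave 3.01 here and 2.18 in the authors' table.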
